A study of Homo sapiens with 6 samples.

Results

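The genes described here are 59 listed genes of the long arm of human chromosome 4, in bands 4q31 to 4q35, read in order from FHIP1A to ACSL1. The window was chosen because its genes were lower on the array labelled MATE2 siRNA than on the control array, so every MATE2 value of these genes against control is a description of that choice and carries no test. The name of the window runs on to TRIML2, but the list stops at ACSL1, and genes beyond ACSL1 are given apart. Of the 59 genes, 53 had at least 1 usable probe, among 18757 named genes with a usable probe in the whole series. Another 6 had none: the probes of TLR2, MAP9 and HMGB2 were named for several genes, FNIP2 and CEP44 had no probe under their name, and the probe of IRF2 was masked by the manufacturer.

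Genes that lie side by side on a chromosome arm need not share a function, but they share its copy number and lie in a common stretch of chromatin. Loss of parts of the long arm of chromosome 4 is a known feature of some squamous carcinomas. This stretch holds several small families placed next to each other, among them the fibrinogen chain genes FGA, FGB and FGG, the soluble guanylate cyclase genes GUCY1A1 and GUCY1B1 and the helicase genes DDX60 and DDX60L, together with unrelated enzymes, signalling genes and neuronal receptors.

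RNA came from HSC3 cells, an established cell line grown out of a tongue cancer of squamous type, and was labelled with Cy5 and hybridized to one-colour CodeLink Human Whole Genome arrays. There were 6 arrays, 1 per condition, labelled MATE2 siRNA, TANGO siRNA, MIA2 siRNA, LEMD1 siRNA, MIA siRNA and control. The deposited design gives the control cells a control siRNA, while the methods call them untreated. A single array per condition gives no replicate check, so ratios carry neither an error nor a p-value, and precision is limited by how few arrays there are. Arrays are named by their labelled siRNA throughout.

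The targeted genes matched the labels in part. SLC47A2, which encodes MATE2, had a normalized signal of 79.6 on MATE2, 58.9 on TANGO, 1575 on MIA2, 1703 on LEMD1, 1334 on MIA and 1510 on control, so it was low on the MATE2 array and also on the TANGO array. LEMD1 had 1011 on MATE2, 3192 on TANGO, 195 on MIA and 278 on control and was near background on both the LEMD1 array (27.6) and the MIA2 array (42.3), while MIA2 itself had a signal of 169 on the MIA2 array and 155 on control. MIA was near background on all 6 arrays, and MIA3, the gene also called TANGO, had no probe under its name. All 6 measured genes of a squamous marker list (KRT5, KRT14, KRT17, TP63, SFN and EPCAM) had good spots on every array, with summed signals of 12378 on MATE2, 11526 on TANGO, 36157 on MIA2, 36409 on LEMD1, 15156 on MIA and 13010 on control. Fibroblast markers were good for 3 of 5 genes on each siRNA array (COL1A1, COL1A2 and LUM), with a summed signal of 476 on MATE2 and 325 to 376 on the other 4, and for 2 on control (COL1A1 and LUM), with 204. Endothelial markers were good for 1 to 2 of 4 genes, with summed signals of 338 to 533, and leukocyte markers for 2 to 3 of 4 measured genes, with summed signals of 170 to 296; PTPRC, the defining leukocyte gene, was good on no array. The part of these differences in the results was not tested.

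Each spot carries a quality flag from the scanner. A gene was compared where its spot was flagged good on both arrays, on the log2 scale of intensities quantile normalized over the 6 arrays, and it was called lower or higher at 2-fold or more. Of the 53 genes with a probe, 26 had a good spot on all 6 arrays, 15 on some, and 12 were near background on all 6: SFRP2, DCHS2, FGG, TDO2, NPY1R, TMEM192, CPE, TLL1, SPOCK3, NEK1, ING2 and RWDD4. On the control array 38 of 53 (71.7%) were good, against 71.3% of all named genes. Probes differ in brightness, so signals of different genes were not set against each other.

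On the array labelled MATE2 siRNA the window held GALNT7, DCTD, PALLD and CLCN3 at 3.57-fold to 9.11-fold below control, and 1 gene, ANXA10, at 27.6-fold above it. Of 30 genes good on both arrays, 21 were below control and 9 above, and the median log2 ratio was -0.50, beside -0.034 over all 12584 named genes. Lower by 2-fold or more were 10 of 30 (33.3%), where 11.7% of all named genes were lower, and higher was 1, where 5.94% were higher. These counts follow from how the window was chosen, and nothing is read from them. The requirement of a good spot leaves out genes that were near background on MATE2. With such genes at the bound of their fold, 15 of 38 (39.5%) were lower, where 12.6% of all named genes were, and the median was -0.63. In RNA of whole cultures, fewer cells that express a gene and less of its RNA per cell cannot be told apart.

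GALNT7 and PALLD, which among the genes good on all 6 arrays stood farthest below their next lowest array, are shown with the sequence around their RefSeq start site, to set a GC-rich start beside one that is not. Each runs 5′ to 3′ over 250 bases before and 50 after the start (RefSeq, GRCh38.p14), at chr4:173168561-173168860 on the plus strand for GALNT7 and chr4:168496802-168497101 on the plus strand for PALLD. Capitals mark a GC box (GGGCGG) and a CCAAT box, on either strand.
GALNT7: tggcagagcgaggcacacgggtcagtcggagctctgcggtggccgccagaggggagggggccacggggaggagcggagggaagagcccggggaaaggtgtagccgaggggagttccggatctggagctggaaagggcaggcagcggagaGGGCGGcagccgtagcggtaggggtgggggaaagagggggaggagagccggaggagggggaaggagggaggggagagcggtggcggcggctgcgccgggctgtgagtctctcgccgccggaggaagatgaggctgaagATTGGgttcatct
PALLD: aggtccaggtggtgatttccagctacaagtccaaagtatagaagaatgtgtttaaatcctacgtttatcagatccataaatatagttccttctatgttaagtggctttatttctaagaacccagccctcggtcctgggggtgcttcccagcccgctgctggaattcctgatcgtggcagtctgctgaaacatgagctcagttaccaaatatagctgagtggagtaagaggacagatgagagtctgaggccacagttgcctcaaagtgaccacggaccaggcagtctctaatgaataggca
The GALNT7 stretch is 69.7% G and C and holds 1 GC box, before the start. Its 1 CCAAT box, read as the reverse ATTGG, lies in the 50 bases after the start. The PALLD stretch is 46.7% G and C and holds none of the 6 motifs searched.

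GALNT7 encodes an enzyme that adds sugars to mucin-type proteins in the Golgi. Its normalized signal was 124 on MATE2, 411 on TANGO, 778 on MIA2, 1133 on LEMD1, 752 on MIA and 1133 on control. The MATE2 array stood lowest, TANGO next, and the other 4 arrays were all above both, with log2 ratios to control of -3.19 on MATE2 and -1.46 on TANGO. PALLD encodes palladin, an actin-binding protein of stress fibres. It had 321 on MATE2, 807 on TANGO, 1708 on MIA2, 2086 on LEMD1, 1019 on MIA and 1338 on control. MATE2 was again lowest (log2 ratio -2.06), and LEMD1 and MIA2 were above control.

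Metabolic enzymes gave 4 of the 10 lower genes, with a median log2 ratio of -0.88 over the 8 of 9 that were measured. They made up 8 of the 30 genes measured on MATE2, where 11.7% of all named genes were lower. DCTD, which deaminates dCMP on the route to thymidine nucleotides, had 416 on MATE2, 865 on TANGO, 1284 on MIA2, 1341 on LEMD1, 1628 on MIA and 1771 on control. Its log2 ratio on MATE2 was -2.09, or -2.44 when read from a further good probe of the gene, and control was the highest of the 6 arrays. ETFDH, which passes electrons from fatty acid oxidation to ubiquinone, had 185 on MATE2, 249 on TANGO, 195 on MIA2, 214 on LEMD1, 326 on MIA and 385 on control. Here MIA2 and LEMD1 were nearly as low as MATE2, whose log2 ratio was -1.06, and -0.74 by the other good probe of the gene. ACSL1, which joins long-chain fatty acids to coenzyme A, had 384 on MATE2, 765 on TANGO, 1367 on MIA2, 2080 on LEMD1, 610.5 on MIA and 772 on control. Its MATE2 ratio of -1.01 lay at the limit of the 2-fold call, and on LEMD1 it was 2.69-fold above control. Among the remaining enzymes the MATE2 log2 ratios were -0.76 for the carbonyl reductase CBR4, -0.19 for AADAT, an aminotransferase of the kynurenine pathway, and 0.13 for LRAT, which esterifies retinol.

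Lysosome and secretory genes gave 2 of the 10, from 3 measured of 6 listed, where 11.7% of all named genes were lower. CLCN3, a chloride and proton exchanger of endosomes, had 69.9 on MATE2, 108 on TANGO, 189 on MIA2, 299 on LEMD1, 234 on MIA and 249 on control, so that MATE2 and TANGO were both low (log2 ratios -1.83 and -1.21). AGA, a lysosomal enzyme that frees asparagine from its sugar chain, had 194 on MATE2, 269 on TANGO, 428 on MIA2, 393 on LEMD1, 346 on MIA and 404 on control. Its log2 ratio on MATE2 was -1.06, and MATE2 and TANGO were the lowest arrays. SPCS3, a subunit of signal peptidase, is measured by 3 good probes that differed on MATE2, with log2 ratios of -0.023, -1.58 and -0.46.

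The other 3 genes called lower on MATE2 belong to ribosome assembly, protein turnover and signalling. TMA16, a factor in assembly of the large ribosomal subunit, had 170.2 on MATE2, 403 on TANGO, 776 on MIA2, 624 on LEMD1, 442 on MIA and 444 on control, with a log2 ratio of -1.38. Of the other RNA genes, PLRG1, a spliceosome component, was at -0.76 and NAF1, which helps to assemble small nucleolar ribonucleoproteins, at 0.015. FBXO8, an F-box protein, had 73.2 on MATE2, 125 on TANGO, 264 on MIA2, 306 on LEMD1, 164 on MIA and 160.5 on control (log2 ratio -1.13). RAPGEF2, an exchange factor for the small GTPase RAP1, had 246 on MATE2, 362 on TANGO, 301 on MIA2, 312 on LEMD1, 425 on MIA and 514 on control, and its log2 ratio was -1.06. FBXO8 was above control on MIA2 and LEMD1, whereas RAPGEF2 was below control on every siRNA array. The MATE2 ratios of ETFDH, ACSL1, AGA, FBXO8 and RAPGEF2 were under 2-fold with 50 added to the signal (log2 ratios of -0.93 to -0.77) and without background correction (-0.90 to -0.70), and those of ETFDH, ACSL1, AGA and RAPGEF2 also against the MIA array (-0.84 to -0.67). Against the median of the 5 other arrays ETFDH was at -0.43 and RAPGEF2 at -0.56.

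**Figure D1:**
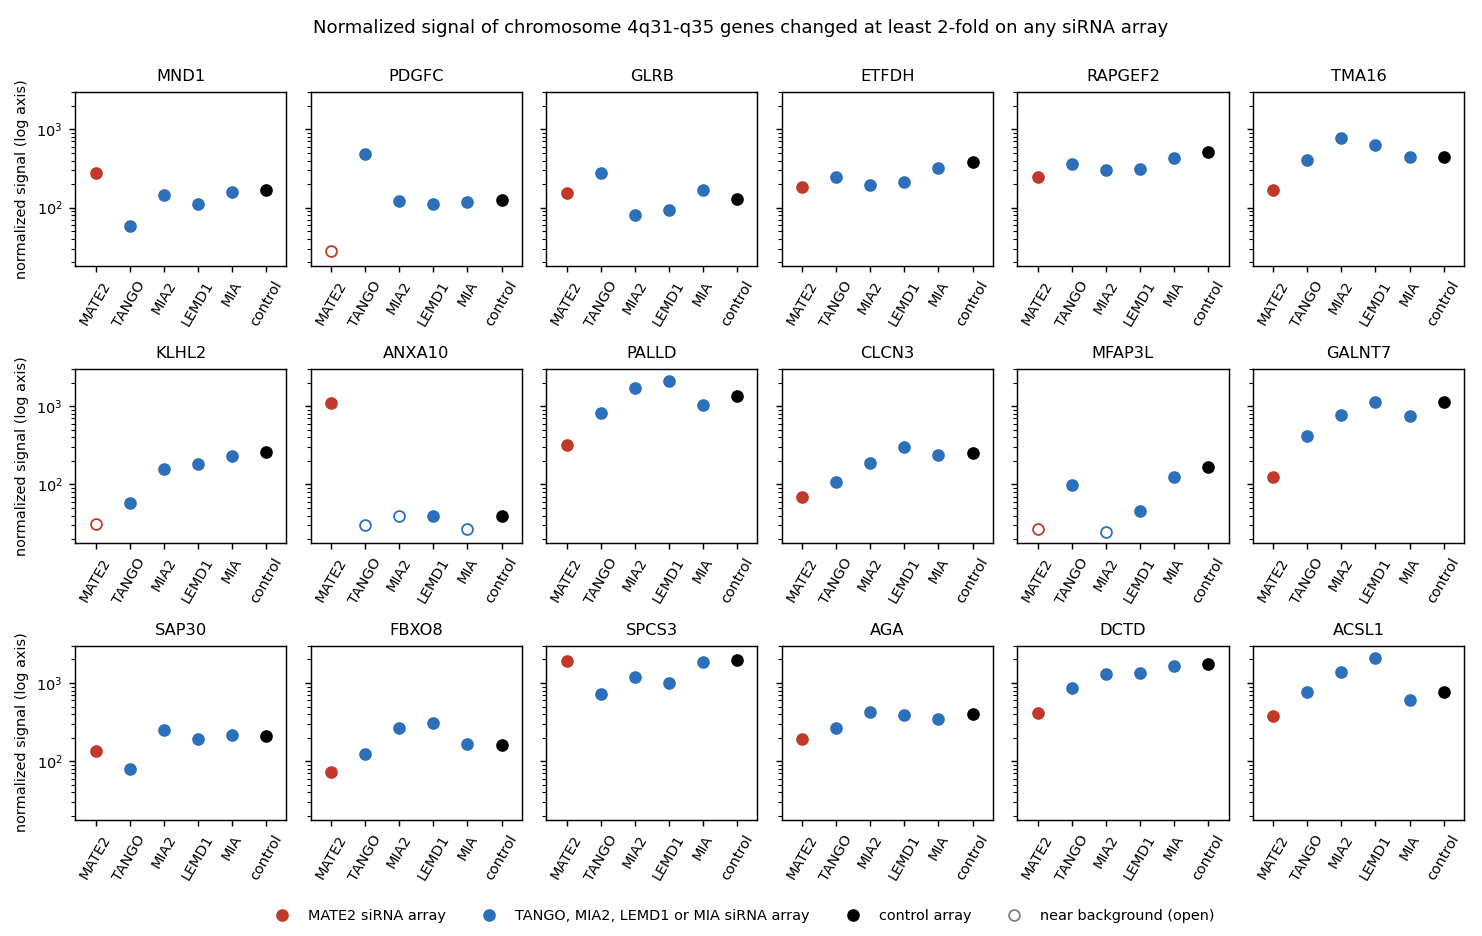
Normalized signal (log axis, no unit) on each of the 6 arrays for the 18 genes of the window at least 2-fold from control on any siRNA array where both spots were good, with open points where the spot was near background and 1 array per point, so no error bar. GALNT7 (124), PALLD (321), DCTD (416) and TMA16 (170.2) sit lowest on MATE2, and ANXA10 is high there alone (1087).

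Another 8 genes had a good spot on control and were near background on MATE2, so that their fold is a lower bound, taken as the good signal over the higher of the dim signal and the lowest good signal of that array. They were 8 of the 38 listed genes counted with bounds, where 759 of 14283 named genes were of this kind. This count too follows from how the window was chosen, and nothing is read from it. KLHL2, an adaptor of a cullin ubiquitin ligase, was at least 8.31-fold lower, with signals of 31.7 on MATE2, 58.6 on TANGO, 157 on MIA2, 182 on LEMD1, 231 on MIA and 263 on control. It was thus also low on TANGO, and 4.49-fold below control there. MFAP3L was at least 5.26-fold lower on MATE2 and at least 4.27-fold lower on MIA2, and PDGFC at least 4.04-fold lower on MATE2. The bounds for CTSO, the cysteine protease cathepsin O, and for GUCY1A1 were 2.31-fold and 2.63-fold. Those of TMEM144, DDX60L and DDX60 were 1.49-fold to 1.98-fold. The GUCY1A1 probe was good on the control array alone (82.7), and the 3 other probes of the gene were near background on all 6 arrays, so its bounds on all 5 siRNA arrays (2.14-fold to 3.01-fold) rest on that 1 spot.

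ANXA10 stood far above control on MATE2, as did HPGD by a further probe of the gene but not by the probe taken. The sequence at their starts is shown, at chr4:168092287-168092586 on the plus strand for ANXA10 and chr4:174522439-174522738 on the minus strand for HPGD (RefSeq, GRCh38.p14). Capitals mark a TATA box (TATAAA) in ANXA10, and in HPGD a CCAAT box, an ETS site (CCGGAAG), GC boxes and an E-box (CACGTG), on either strand.
ANXA10: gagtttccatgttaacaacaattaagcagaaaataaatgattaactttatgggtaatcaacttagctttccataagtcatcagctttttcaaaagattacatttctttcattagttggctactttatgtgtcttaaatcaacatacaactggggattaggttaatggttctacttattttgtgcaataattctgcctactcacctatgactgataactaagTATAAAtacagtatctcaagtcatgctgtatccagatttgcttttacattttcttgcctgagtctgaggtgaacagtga
HPGD: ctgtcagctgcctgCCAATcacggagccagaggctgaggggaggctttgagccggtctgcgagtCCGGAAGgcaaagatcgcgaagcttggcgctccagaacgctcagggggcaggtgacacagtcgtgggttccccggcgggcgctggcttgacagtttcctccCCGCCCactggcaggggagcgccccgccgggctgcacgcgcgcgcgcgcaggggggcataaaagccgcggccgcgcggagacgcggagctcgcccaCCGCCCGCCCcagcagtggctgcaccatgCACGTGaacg
The ANXA10 stretch is 32.7% G and C, a value shared with FGB. It is the lowest among the 51 listed genes with a promoter in the table. The HPGD stretch is 71.0% G and C, near the 69.7% of GALNT7, and holds 6 matches, of which 2 GC boxes overlap. These 2 GC boxes and the E-box lie after the start.

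ANXA10 encodes an annexin, a calcium-dependent membrane-binding protein known from gastric epithelium. It had 1087 on MATE2, 30.4 on TANGO, 39.0 on MIA2, 39.2 on LEMD1, 27.3 on MIA and 39.4 on control, and was near background on TANGO, MIA2 and MIA. The 5 other arrays lay together at or near background, and MATE2 was 27.6-fold above control, a log2 ratio of 4.79. That size rests on a control spot close to the lowest good signal of its array (34.2), and it moved to a log2 ratio of 3.44 without background correction and 3.67 with 50 added to the signal. HPGD encodes the dehydrogenase that inactivates prostaglandins, and its 2 probes differed. The probe taken had 230.3 on MATE2, 161 on TANGO, 119 on MIA2, 200 on LEMD1, 130.1 on MIA and 179 on control, a log2 ratio of 0.37 on MATE2. The other probe had 1186 on MATE2, 99.4 on TANGO, 40.7 on MIA2, 29.8 on LEMD1, 28.9 on MIA and 31.6 on control, and was near background on the last 4 of these. By that probe HPGD was at least 34.6-fold higher on MATE2 and at least 2.90-fold higher on TANGO, both against control, so the 2 probes gave unlike sizes on MATE2.

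By the probe taken, the remaining genes measured on MATE2 lay within 2-fold of control. Next highest after ANXA10 were MND1, a partner of meiotic strand exchange, at a log2 ratio of 0.73, GUCY1B1 at 0.49, HPGD at 0.37 and FGB at 0.30. The chromatin and DNA repair genes SAP30, a subunit of the SIN3 deacetylase complex, and NEIL3, a DNA glycosylase, were at -0.65 and -0.56. Of the fibrinogen chains, FGA was at -0.47 against 0.30 for FGB.

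**Figure D2:**
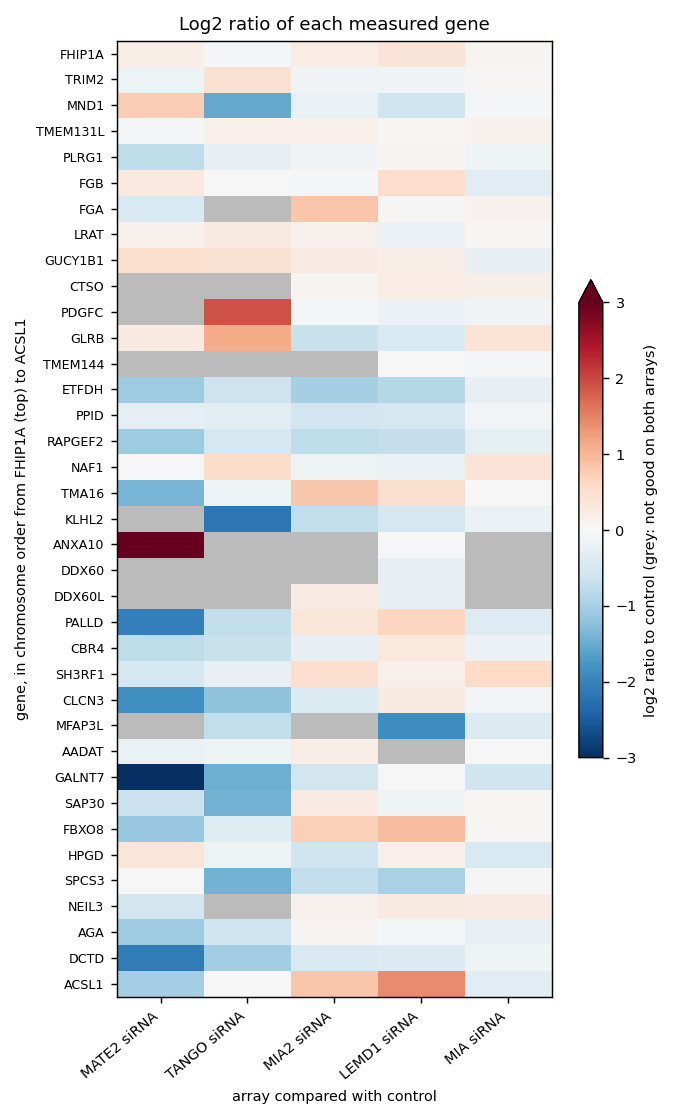
Log2 ratio to control (colour, from -3 to 3, with higher values in the darkest red) of the 37 listed genes good on control and on at least 1 siRNA array, in chromosome order from FHIP1A at the top to ACSL1, with grey where a spot was not good on both arrays. Blue cells gather in the lower rows of the MATE2 and TANGO columns (GALNT7 -3.19 and -1.46), and the MIA column holds no value past 1 in size.

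The values on the array labelled TANGO siRNA did not enter the choice of the window, but they share the control array with it. TANGO also resembled MATE2 elsewhere. Gene blocks at 19p13.3, 11q13-q14 and 17p13 had medians of the same sign on both arrays, so TANGO gives no independent check of the window. Of 30 genes good on both arrays, 22 were below control and 8 above, with a median log2 ratio of -0.28 beside -0.031 over all 12548 named genes. The median was also low on the rest of chromosome 4, at -0.25 on the long arm before FHIP1A and -0.25 on the short arm. Lower by 2-fold or more were 7 of 30 (23.3%), where 9.07% of all named genes were lower, and higher were 2 (6.67%), where 5.55% were higher. Set against the MIA array in place of control, which uses neither array of the choice, 5 of 31 (16.1%) were lower on TANGO, where 7.54% of all named genes were, 1 was higher, where 5.56% were, and the median was -0.22 beside -0.025. With genes near background on 1 array at their bound, 12 of 39 (30.8%) were lower on TANGO than on control, where 10.2% of all named genes were, and the median was -0.50.

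KLHL2 had the lowest TANGO ratio of the window, -2.17. MND1 had 278 on MATE2, 57.5 on TANGO, 146 on MIA2, 112 on LEMD1, 161 on MIA and 168 on control, so it was lowest on TANGO (log2 ratio -1.54) and highest on MATE2. SAP30 had 134 on MATE2, 79.0 on TANGO, 250.3 on MIA2, 191 on LEMD1, 218 on MIA and 210.1 on control, a log2 ratio of -1.41 on TANGO. These were the only chromatin and DNA repair genes of the list measured on both TANGO and control, 2 of 8 listed. Both were lower there, where 9.07% of all named genes were lower, and so few genes allow no reading of the group. NEIL3, of the same group, was near background on TANGO and at least 3.82-fold lower, with 102 on MATE2, 39.3 on TANGO, 163 on MIA2, 181 on LEMD1, 178 on MIA and 150.0 on control. SPCS3 had 1925 on MATE2, 732 on TANGO, 1175 on MIA2, 1003 on LEMD1, 1877 on MIA and 1956 on control by the probe taken, and all 3 of its probes were lower on TANGO, at log2 ratios of -1.42, -1.01 and -1.22. GALNT7, CLCN3 and DCTD, at TANGO log2 ratios of -1.46, -1.21 and -1.03, were also called lower there. Against the MIA array GALNT7 was at -0.87 and DCTD at -0.91, under 2-fold. Without background correction CLCN3, SAP30 and DCTD were at -0.89, -0.90 and -0.98.

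PDGFC, a growth factor of the platelet-derived family, had 28.0 on MATE2, 481 on TANGO, 122 on MIA2, 112 on LEMD1, 117 on MIA and 127 on control. TANGO was 3.79-fold above control and MATE2 was near background, while the other 3 siRNA arrays stayed close to control. GLRB, the beta subunit of the glycine receptor, had 155 on MATE2, 274 on TANGO, 80.6 on MIA2, 93.2 on LEMD1, 170.2 on MIA and 128 on control, and was 2.15-fold higher on TANGO, but at a log2 ratio of 0.69 against the MIA array. FGA was near background on TANGO (20.7) against 140.5 on control, at least 4.48-fold lower, while FGB, next to it, had 313 on TANGO and 309.5 on control. CTSO was near background on both MATE2 (14.6) and TANGO (23.1) and good on the other 4 arrays, at 72.6 to 84.9. In all 8 of the 39 listed genes counted with bounds were good on control and near background on TANGO, 5 of them with a bound of 2-fold or more. Among all named genes, 796 of 14206 were good on control and near background on TANGO.

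A direct comparison of the MATE2 and TANGO arrays, which leaves control out but uses the MATE2 array that chose the window, is given as a description. Of 27 listed genes good on both, 19 were lower on MATE2, with a median log2 ratio of MATE2 over TANGO of -0.43, beside -0.043 over 12719 named genes.

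The MIA2, LEMD1 and MIA arrays showed little shift of the window. On MIA2 the median log2 ratio of 33 genes was -0.036, with 17 below control and 16 above, and none of these was 2-fold lower or higher, where 5.19% and 3.29% of all named genes were. On LEMD1 the median of 36 genes was -0.0034. MFAP3L alone was called lower there (2.78% of 36, where 3.94% of all named genes were), with 27.0 on MATE2, 98.2 on TANGO, 24.5 on MIA2, 45.4 on LEMD1, 125 on MIA and 165 on control, the MATE2 and MIA2 spots being near background. ACSL1, at 2080 on LEMD1 and 772 on control, was the 1 gene called higher on LEMD1, where 2.03% of all named genes were. On MIA the median of 34 genes was -0.074 and none of these passed 2-fold, where 0.273% of all named genes were lower and 0.391% higher. The medians over all named genes were -0.0069 on MIA2, -0.023 on LEMD1 and -0.041 on MIA.

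The spread of the ratios, given as a robust SD over genes, was also widest on MATE2 and TANGO. It was 0.83 for the listed genes on MATE2, where it was 0.65 for all named genes, and 0.65 on TANGO, where it was 0.61. On MIA2 it was 0.43, where it was 0.53 for all named genes, on LEMD1 0.39, where it was 0.42, and on MIA 0.23, where it was 0.25. Genes are not independent replicates, and this spread holds real differences as well as noise.

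**Figure D3:**
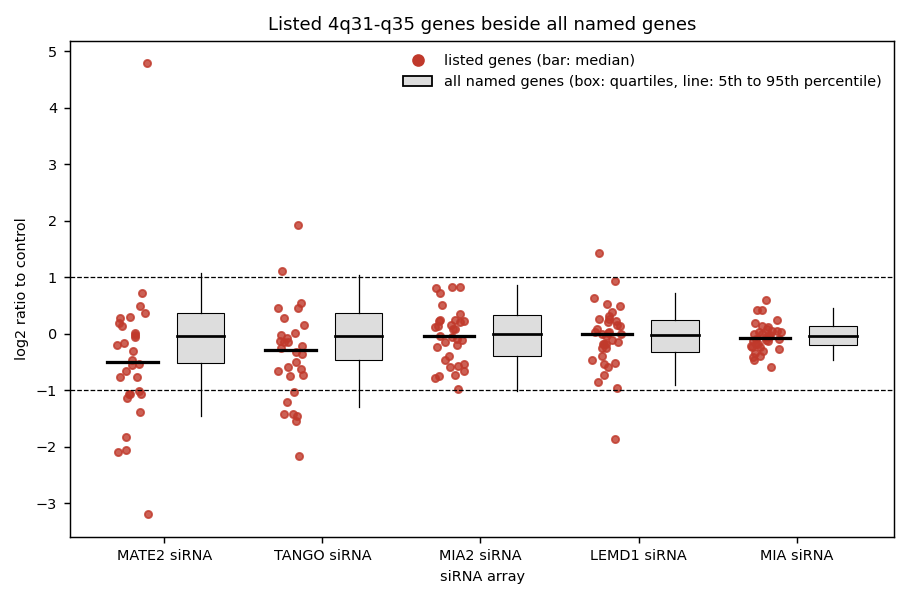
Log2 ratio to control of the listed genes on each siRNA array (points, with a bar at the median) beside all named genes good on both arrays (box: quartiles, line: 5th to 95th percentile). The bar lies at -0.50 on MATE2 and -0.28 on TANGO and near 0 on MIA2, LEMD1 and MIA, and single points (ANXA10 at 4.79, GALNT7 at -3.19) lie far from it.

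Among the 26 listed genes good on all 6 arrays, MATE2 was the lowest array for 15 (57.7%), where it was lowest for 24.3% of 11482 named genes. As MATE2 chose the window, that count is a description. TANGO was lowest for 4 (15.4%), where it was for 23.1% of all named genes, and MIA2 for 3 (11.5%), where it was for 14.9%. LEMD1 was lowest for 2, where 13.1% of all named genes were, MIA for 2, where 9.8% were, and control for none, where 14.8% were. TMA16, PALLD, GALNT7 and DCTD were at least 2-fold lower on MATE2 than on each of the other 5 arrays, as were 1.96% of all named genes.

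By position, the count of genes lower on MATE2 depended on whether genes near background there were taken in. Of the first 20 listed genes, FHIP1A to GRIA2, 10 were good on both arrays, with a median log2 ratio of 0.16 and none lower by 2-fold, but PDGFC, CTSO and GUCY1A1 were near background on MATE2 with bounds past 2-fold. With bounded genes put at their bound, 3 of 13 were lower in this stretch and the median was -0.061. Over all named genes, 11.7% of those good on both arrays were lower on MATE2, and 12.6% with bounds. Of the next 20, TMEM144 to SH3RF1, 9 were good on both, with a median of -0.76 and 4 lower, and with bounds 5 of 13 were lower. Of the last 19, NEK1 to ACSL1, 11 were good on both, with a median of -1.01 and 6 lower, and with bounds 7 of 12 were lower and the median was -1.03. On TANGO the stretches had medians of 0.21, -0.50 and -0.75 over genes good on both arrays, and 0.016, -0.54 and -0.75 with bounds, which added FGA, CTSO and GUCY1A1 to the lower genes of the first stretch, 4 of 13 in all. The shares of all named genes lower on TANGO were 9.07%, and 10.2% with bounds. On MIA2 and LEMD1 the last stretch lay at 0.084 and 0 over genes good on both arrays, and on MIA at -0.10. With bounds it lay at -0.16 on MIA2, -0.020 on LEMD1 and -0.087 on MIA. The division into stretches by gene number was made with the ratios known.

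Genes of the same interval that the list leaves out lie in the window chosen on MATE2. Their MATE2 values are therefore a description too, and nothing is read from them. Among 75 such genes with a probe, 35 were measured on MATE2, with a median log2 ratio of -0.61 and 11 lower (31.4%), where 11.7% of all named genes were lower and their median was -0.034. On TANGO 31 were measured, with a median of -0.55 and 9 lower (29.0%), where 9.07% of all named genes were lower and their median was -0.031. None was higher by 2-fold on either array. They were named after their values were seen. TRAPPC11, a part of a vesicle tethering complex, had 78.5 on MATE2, 146 on TANGO, 288 on MIA2, 390 on LEMD1, 375 on MIA and 440.2 on control. CENPU, a kinetochore protein, had 138 on MATE2, 98.2 on TANGO, 340.4 on MIA2, 256 on LEMD1, 604 on MIA and 683 on control. Both were lowest on the MATE2 and TANGO arrays. TRIML2, which closes the interval, had 113 on MATE2, 118 on TANGO, 811 on MIA2, 912 on LEMD1, 325 on MIA and 344 on control, low on the first 2 of these arrays and high on the next 2.

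The edges of the list were not sharp. Just inside it, FHIP1A and TRIM2, a ubiquitin ligase gene, were at MATE2 log2 ratios of 0.19 and -0.16, and DCTD and ACSL1 at -2.09 and -1.01. Just outside, towards the centromere, SH3D19 was at 0.52, RPS3A at -0.29, LRBA at -1.69, NR3C2 at -0.26 and ARHGAP10 at -4.07. Past ACSL1, LINC02436 was at 0.27, SLC25A4 at -0.99, CFAP97 at -2.37, UFSP2 at -1.15 and CFAP96 at -0.41. Lower genes thus lay on both sides of the list.

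Over the rest of chromosome 4 the shares of lower genes lay closer to those of all named genes (11.7% on MATE2 and 9.07% on TANGO). The TANGO medians there did not: they lay near the -0.28 of the listed genes, below the -0.031 of all named genes. The 234 genes of the long arm before FHIP1A had a median log2 ratio of -0.24 on MATE2, with 15.0% lower by 2-fold and 3.85% higher, and the 236 measured on TANGO had -0.25, with 12.7% lower and 2.54% higher. On the short arm the medians were -0.13 for 140 genes on MATE2, with 12.9% lower and 6.43% higher, and -0.25 for 141 on TANGO, with 14.9% lower and 2.13% higher. The median of the whole interval from FHIP1A to TRIML2, listed or not, was -0.54 on MATE2 and -0.36 on TANGO.

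**Figure D4:**
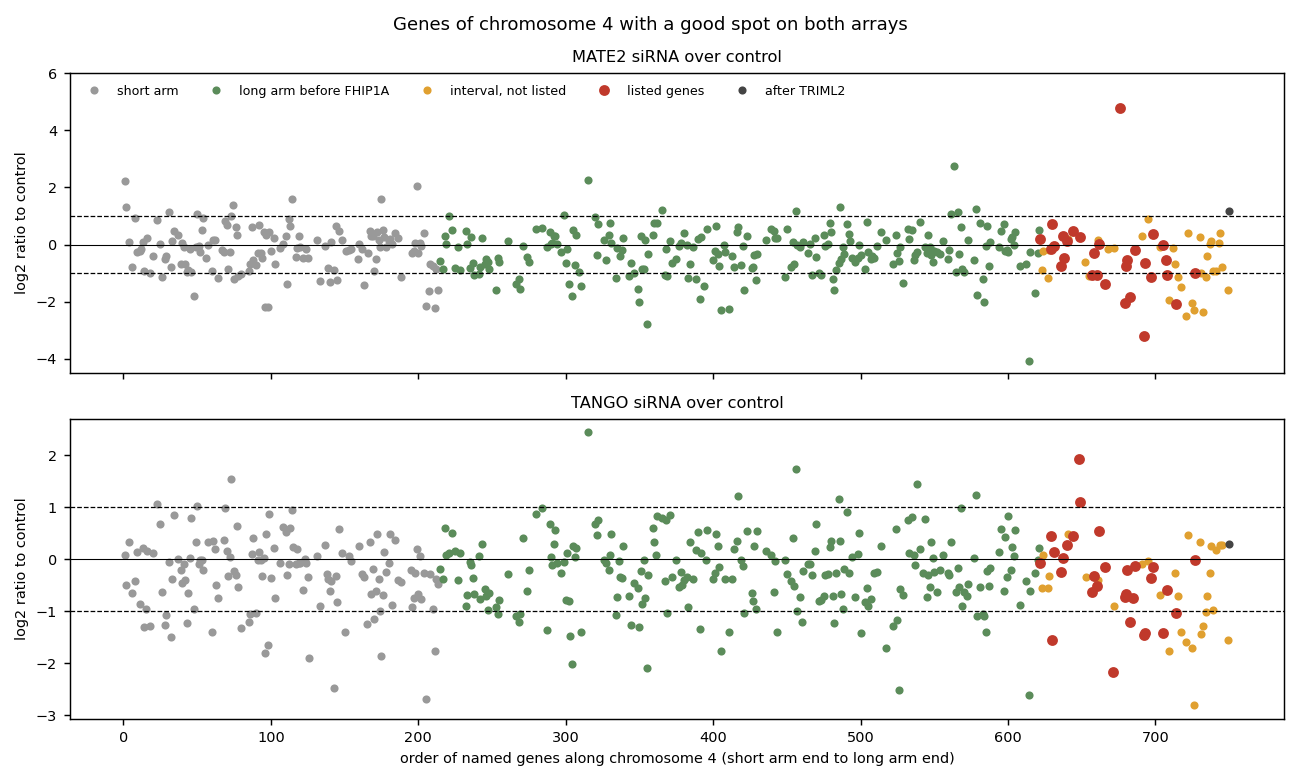
Log2 ratio to control of every named chromosome 4 gene good on both arrays, in order along the chromosome from the end of the short arm, for the MATE2 array (top) and the TANGO array (bottom), with dashed lines at 2-fold. The listed genes (red) and their unlisted neighbours (orange) reach below -1 on both arrays, 10 and 11 of them on MATE2, and so do genes of the short arm and the rest of the long arm.

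Start-site sequences were compared over the 51 listed genes that matched the RefSeq promoter table, 9 of them among the 10 lower on MATE2. The median G and C content was 65.7% for these 9, 62.3% for the 51 and 58.3% for all 27305 promoters in the table. A CCAAT box was present in 27 of 51 (52.9%), where 35.7% of all promoters hold one, and a GC box in 29 (56.9%), where 44.6% do. TATAAA was found in 3 (5.88%), TDO2, TLL1 and ANXA10, where 12.0% of all promoters hold it. An ETS site was present in 8 (15.7%, 10.7% of all promoters), an E-box in 6 (11.8%, 7.43%) and the AP-1 letters TGACTCA in 1 (1.96%, 4.92%). Of the 9, 5 held a CCAAT box, 6 a GC box, 2 an ETS site, 1 an E-box and none TATAAA or the AP-1 letters. So few promoters allow no reading of these counts. Neighbouring genes that share a start region, such as those read in opposite directions, can share a match. Matches were counted both before and after the start, and a match describes letters alone.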

How the data were processed

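Total RNA of HSC3 cells was measured on 6 one-colour CodeLink arrays, 1 per condition. The deposited scanner files hold the spot intensity, mean spot brightness after subtraction of the median local background. Per the file headers, the authors' scanner software was CodeLink Expression Analysis 5.0.0.31312. The deposited value table holds linear quantile normalized intensity. Quantile normalization of the scanner values gave 100% of its values within 1% plus 1, and every column median was 51.1. The genome build of the probes is not given in the sources used here.

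Of 53423 gene probes, 320 masked on any array were left out. Intensities of the remaining 53103 were quantile normalized over the 6 arrays, set to a floor of 1 and taken to log2 (Python 3.11.15, numpy 2.4.6, pandas 2.3.3). Each siRNA array was compared with control, where both spots were flagged good. The platform table named 23311 probes for 1 gene and 898 for several, accessions named 649 (NEK1 and AGA among the listed genes), and 28245 had no name here. Of several probes of a gene, the one with most good flags, then the highest mean log2 signal, was taken. Between 27545 and 30628 gene probes were good per array, and the lowest good signal was 27.5 to 38.6. The procedure was tested on simulated data. No test between conditions was possible.

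Genes named are those at least 2-fold from control on any siRNA array, the 10 lowest and 5 highest on MATE2, those with a bound, and up to 4 examples per role group. The listed genes, role groups, motifs, marker lists and rules were chosen with earlier results of these data known. There were 13 alternatives: scaling by the array median, quantile normalization of the 2 arrays alone, normexp background correction (limma 3.58.1, R 4.3.3), no background correction, the deposited table, a good flag on at least 1 of the 2 arrays, bright probes, no filter, 2 other comparators, 50 added to the signal, the mean over probes, and all genes of the interval. Counts with dim genes at their bound were added after seeing the data.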

Additional observations from a re-analysis of the deposited data

How the results depend on the processing

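No paired analysis was possible because each condition has 1 array, and no array was left out in turn. All 22 pairs of a listed gene and an array at 2-fold or more kept their direction under every alternative run, and 11 stayed at 2-fold or more, 6 of them on MATE2 (GALNT7, DCTD, PALLD, CLCN3, TMA16 and ANXA10). A good flag on 1 array, no filter and bright probes cannot change the ratio of a gene already good on both arrays. Nor can the mean over probes where a gene has 1 good probe, so these alternatives add nothing to those counts. ANXA10 has no value against arrays where it was near background. The causes of the differences were not tested.

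The median log2 ratio ran from -1.03 (bright probes alone, 14 genes) to -0.29 on MATE2, from -0.50 to -0.15 on TANGO, from -0.079 to 0.087 on MIA2, from -0.069 to 0.10 on LEMD1 and from -0.17 to 0.067 on MIA, the last against the median of the 5 other arrays. Scaling by the array median gave a TANGO split over all named genes of 10.9% lower and 4.16% higher, beside 9.07% and 5.55%, and their median moved to -0.12.

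With normexp 5 of 30 genes were lower on MATE2 (7.53% of all named genes), and on TANGO 3 of 30 were lower (5.36%) and 1 higher (3.22%). With no background correction these were 5 (6.86%), 4 (4.93%) and 1 (3.04%), and 50 added to the signal gave 5 lower on MATE2 (7.68%) and 1 higher on TANGO (3.32%). A good flag on 1 array sufficing gave 17 of 38 lower on MATE2 (13.98% of all named genes), 13 of 39 on TANGO (11.7%), 2 of 38 on MIA2, 3 of 39 on LEMD1 and 2 of 40 on MIA. With no filter, lower and higher of 53 were 21 (15.3%) and 3 (11.2%) on MATE2, 17 (13.35%) and 6 (10.95%) on TANGO, 3 and 5 on MIA2, 8 and 5 on LEMD1, and 3 and 4 on MIA, which takes in dim spots. With dim genes at their bound, 12 of 39 were lower on TANGO (10.2%), 2 of 38 on MIA2, 2 of 39 on LEMD1 and 1 of 40 on MIA. Bright probes, 14 genes, gave 0 higher on MATE2 (6.16%), 3 lower (10.8%) and 0 higher (5.65%) on TANGO and 0 lower on LEMD1. Where an alternative changed the signal, filter or comparator, shares of all named genes were taken for MATE2 and TANGO alone. The MIA2, LEMD1 and MIA counts under those alternatives, here and below, have no such share beside them, and nothing is read from them.

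When the comparator was the median of all 5 others, with 26 genes, 0 were higher on MATE2 (4.45%), 4 lower (6.11%) and 1 higher (4.71%) on TANGO, and 0 lower and 2 higher on LEMD1. Against the MIA array, 0 of 29 were higher on MATE2 (5.21%), 1 of 31 higher on TANGO (5.56%), 1 lower and 1 higher of 32 on MIA2, and 2 of 33 higher on LEMD1; this was not run for the MIA array itself. Array median scaling gave 1 of 33 higher on MIA2 and 2 of 36 lower on LEMD1, and normalizing 2 arrays alone gave 1 of 33 lower on MIA2. All genes of the interval gave 21 of 65 lower on MATE2 (11.7% of all named genes) and 16 of 61 on TANGO (9.07%). On MIA2 2 of 66 were lower (5.19%) and 1 higher (3.29%). On LEMD1 4 of 73 were lower (3.94%) and 2 higher (2.03%), and on MIA 2 of 70 were lower (0.273%). Signal near background limits what could be called.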
